A study of Mus musculus with 15 samples.

Results

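The genes described here are 10 members of the vascular endothelial growth factor (VEGF), platelet-derived growth factor (PDGF) and angiopoietin pathways: the ligands Vegfa, Pdgfa, Pdgfb, Angpt1 and Angpt2 and the receptors Flt1, Kdr, Tek, Pdgfra and Pdgfrb. They were taken by symbol from a deposited table of 20610 genes, in which all 10 were present once, and all 10 were among the 13351 genes tested (at least 1 TPM in at least 5 libraries). TPM values are scaled for transcript length and to a fixed total per library, so levels of different genes can be set side by side. The libraries came from polyA RNA of neurons, astrocytes and microglia separated magnetically from the cortex of wild-type (WT) male mice at postnatal day 28 (P28), with 5 libraries per cell type and 15 in all. The strain, the antibodies used for the separation and the animals behind each library are not given in the sources used here. Replicates are separate samples by label only, so p-values measure the spread between libraries, which may be technical.

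In these pathways the ligand is usually made by one cell and read by another. VEGF-A binds the receptor tyrosine kinases KDR (VEGFR2), which carries most of the growth signal in endothelial cells, and FLT1 (VEGFR1), which binds the ligand tightly and signals weakly. Endothelial PDGF-B recruits pericytes through PDGFRB, while PDGF-A drives oligodendrocyte precursors through PDGFRA. ANGPT1 activates the endothelial receptor TEK (TIE2), and ANGPT2 acts as an antagonist or weak agonist of the same receptor.

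The isolates carried their own markers and also transcripts of other brain cells. Summed over 10 markers each, astrocyte markers reached 21349 to 24405 TPM in astrocytes and microglia markers 59990 to 93560 TPM in microglia. Pan-neuronal markers summed to 914 to 1790 TPM in neurons, 134 to 300 TPM in astrocytes and 14.5 to 149 TPM in microglia. The sum of 12 endothelial markers in neuron libraries exceeded that of the pan-neuronal ones. It was 7806 to 11719 TPM there, against 817 to 1326 TPM in astrocytes and 138 to 255 TPM in microglia, and all 12 were called higher in neurons than in both other isolates. The 10 mural cell markers (pericytes and smooth muscle) summed to 3008 to 5622 TPM in neurons, 1914 to 2606 TPM in astrocytes and 108 to 275 TPM in microglia. No endothelial or mural marker was at 0 in all libraries of an isolate. In bulk RNA, fewer cells of a type and less RNA per cell cannot be told apart.

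The members fell into different patterns. Vegfa was highest in astrocytes, the receptors Flt1, Kdr and Tek were highest in the neuron isolates, Pdgfb was lowest in astrocytes, and Pdgfra, Pdgfrb, Angpt1 and Angpt2 were lowest in microglia with smaller differences between the other isolates. Calls required an adjusted p (limma, Benjamini-Hochberg) below 0.05 together with a log2 difference of 1 or more. Differences were taken on log2(TPM + 1) values and so come out too small for genes near 1 TPM. Between neurons and astrocytes 6 of 10 members were called, against 25.6% of all tested genes. Of these 5 were higher in neurons, a direction called for 12.9% of tested genes, and 1 was higher in astrocytes, a direction called for 12.7%. Between neurons and microglia 8 of 10 were called, all higher in neurons (39.3% of tested genes called, and 29.5% higher in neurons). Between astrocytes and microglia 9 of 10 were called (42.5% of tested genes), 8 of them higher in astrocytes (32.3%) and 1 higher in microglia (10.2%). No member was called higher in microglia than in neurons, a direction called for 9.74% of tested genes. Libraries of the isolates compared did not overlap for 6, 9 and 9 of the 10 members in these 3 comparisons, against 39.0%, 54.3% and 58.4% of tested genes. The comparisons share libraries in pairs, so their counts are not independent.

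**Figure D1:**
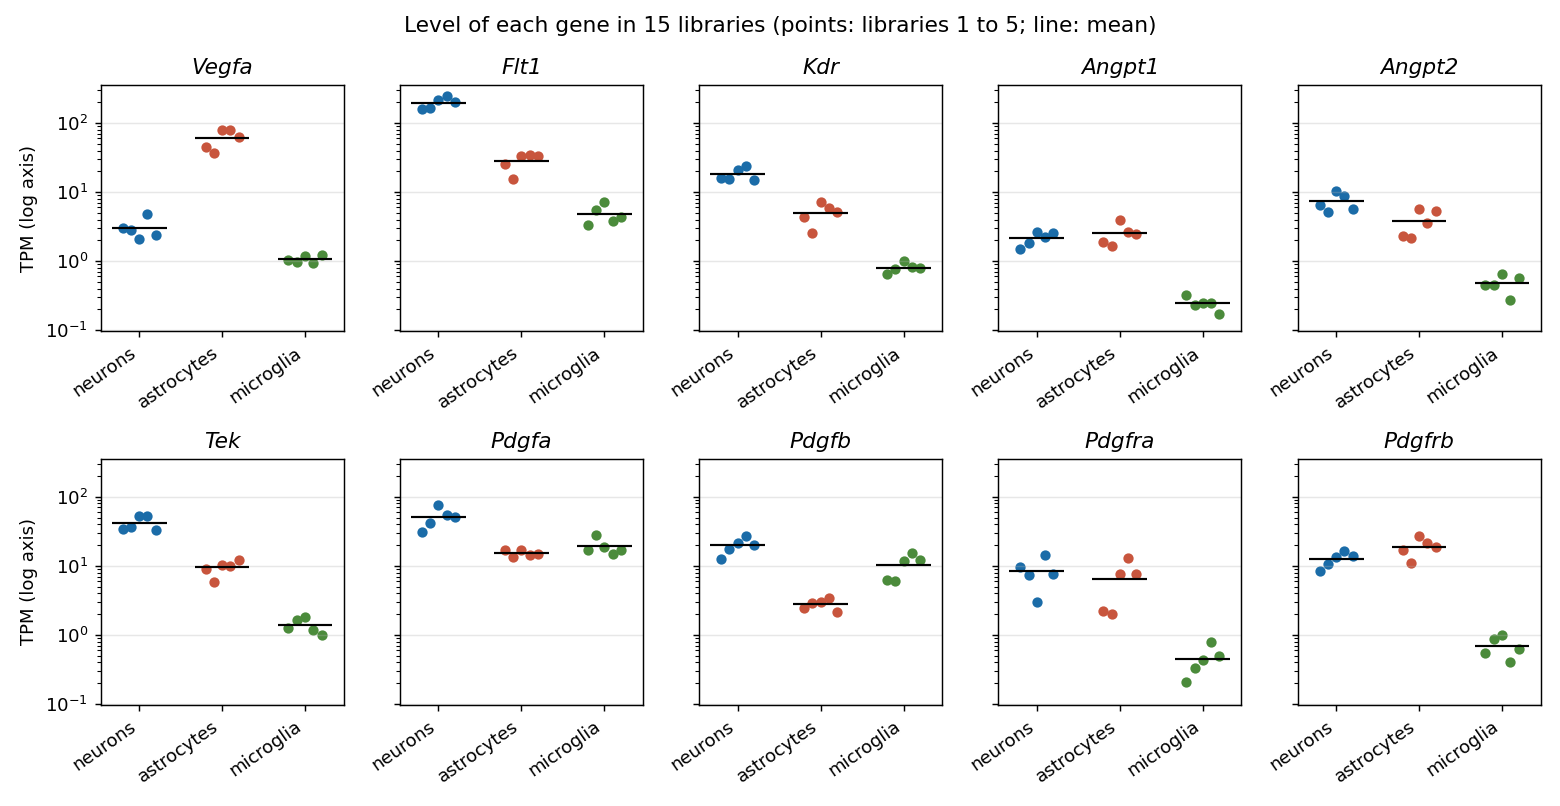
Level of each of the 10 genes in TPM on a logarithmic axis, by isolate; each point is 1 library, in the order of its number from left to right, and the line is the mean of 5. Vegfa stands at 36.3 to 78.9 TPM in astrocytes and below 5 TPM in the other isolates, whereas Flt1 falls from 158 to 245 TPM in neurons to 3.29 to 7.07 TPM in microglia.

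Vegfa (chr17:46016993-46032369, mm10, minus strand), the main growth factor of brain endothelium, was at 45.0, 36.3, 78.9, 78.8 and 62.0 TPM in astrocyte libraries 1 to 5. In neurons it was at 3.05, 2.78, 2.06, 4.75 and 2.41 TPM, and in microglia at 1.04, 0.97, 1.18, 0.95 and 1.24 TPM. The isolates did not overlap in any pair, and within astrocytes libraries 1 and 2 were the lowest. The mean was 60.2 ± 19.4 TPM in astrocytes (SD, n = 5), 3.01 ± 1.04 TPM in neurons and 1.08 ± 0.129 TPM in microglia. The log2 difference of neurons from astrocytes was -3.90 (SE 0.22, limma adjusted p = 7.88e-11), and that of astrocytes from microglia 4.82 (SE 0.22, adjusted p = 1.38e-12). Neurons exceeded microglia by a log2 of 0.92 (95% interval 0.46 to 1.37, limma adjusted p = 0.00113), which is under the 2-fold limit. The gene was called with a pseudocount of 0.1 in place of 1 (1.35) and without neuron library 3 (1.01), while the difference was 0.55 with median-of-ratios scaling and 0.27 with quantile normalization. Among the 10 members Vegfa had the highest mean in astrocytes, above 84.1% of tested genes, the second lowest in neurons, above 24.2%, and the fifth highest in microglia, above 18.4%. Per 1000 TPM of the summed astrocyte markers Vegfa was at 1.70 to 3.30 TPM in astrocytes, 1.58 to 3.13 TPM in microglia and 8.42 to 31.3 TPM in neurons. The ratio thus overlapped between astrocyte and microglia libraries, and all neuron libraries lay above both. Aldoc alone averaged 14959 of the 23409 TPM of summed markers in astrocytes, 303 of 538 in microglia and 89.7 of 211 in neurons. This ratio, and the overlap, may therefore depend on the weight of Aldoc, and the ratio was not taken without it.

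Flt1 (chr5:147561604-147726011, minus strand) was the member with the highest mean in neurons. Libraries 1 to 5 held 158, 163, 218, 245 and 202 TPM in neurons, 25.1, 15.3, 33.3, 33.9 and 33.1 TPM in astrocytes, and 3.29, 5.51, 7.07, 3.87 and 4.34 TPM in microglia. No 2 isolates overlapped, and neurons stood highest in every library. The log2 difference was 2.80 for neurons minus astrocytes (SE 0.22, limma adjusted p = 7.42e-09), 5.11 for neurons minus microglia (adjusted p = 9.18e-13) and 2.31 for astrocytes minus microglia (adjusted p = 3.33e-08).

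Kdr (chr5:75932827-75978458, minus strand), the other VEGF-A receptor, had the same order at lower levels. It was at 15.8, 15.4, 21.2, 23.8 and 15.2 TPM in neuron libraries 1 to 5, at 4.42, 2.52, 7.21, 5.80 and 5.12 TPM in astrocytes, and at 0.65, 0.77, 1.02, 0.81 and 0.79 TPM in microglia. Neurons were higher than astrocytes by a log2 of 1.71 (SE 0.20, limma adjusted p = 1.59e-06) and than microglia by 3.39 (adjusted p = 9.80e-11), and astrocytes were higher than microglia by 1.68 (adjusted p = 8.46e-07), or 1.02 after quantile normalization. Flt1 exceeded Kdr in every library. The ratio of their TPM was 10 to 13.3 in neurons, 4.61 to 6.47 in astrocytes and 4.78 to 7.16 in microglia, so the neuron libraries lay above all others and the astrocyte and microglia ranges overlapped.

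Tek (chr4:94739289-94874976, plus strand), the angiopoietin receptor, was at 33.9, 36.2, 52.5, 52.2 and 33.4 TPM in neuron libraries 1 to 5. Astrocyte libraries held 8.86, 5.77, 10.4, 9.96 and 12.3 TPM, and microglia libraries 1.26, 1.65, 1.80, 1.18 and 1.01 TPM. The isolates did not overlap. The log2 difference was 2.03 for neurons minus astrocytes (SE 0.20, limma adjusted p = 1.09e-07), 4.14 for neurons minus microglia (adjusted p = 3.53e-12) and 2.11 for astrocytes minus microglia (adjusted p = 2.48e-08). With Vegfa in astrocytes and Pdgfa in neurons, Flt1, Kdr and Tek made up the 5 members called higher in 1 isolate than in both others, and such genes were 9.58% of those tested for neurons and 10.2% for astrocytes. No member was called higher in microglia than in both others, as 7.42% of tested genes were.

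The 3 receptors had the same order of isolates as the endothelial markers, highest in neurons and lowest in microglia. The median log2 difference of the 12 markers was 2.53 for neurons minus astrocytes, 4.36 for neurons minus microglia and 2.17 for astrocytes minus microglia, beside -0.03, 0.48 and 0.57 for all tested genes. Per 1000 TPM of summed endothelial markers Flt1 was at 19.3 to 22 TPM in neurons, 18.7 to 27.8 TPM in astrocytes and 22 to 29.7 TPM in microglia, ranges that overlap or touch although Flt1 itself spanned 3.29 to 245 TPM. Kdr by the same measure was at 1.65 to 2.03 TPM in neurons, 3.08 to 5.44 TPM in astrocytes and 3.69 to 5.86 TPM in microglia. Tek was at 3.64 to 4.85, 7.06 to 10.1 and 6.90 to 8.53 TPM. Relative to the markers, then, Kdr and Tek were lower in all neuron libraries than in all others, and the astrocyte and microglia libraries overlapped. Itm2a alone averaged 5482 of the 9543 TPM of summed markers in neurons, 523 of 1116 in astrocytes and 53.6 of 179 in microglia. Its log2 difference of neurons from microglia, 6.73, exceeded the marker median of 4.36. These ratios therefore depend on the weight of that gene, and were not taken without it. The part of endothelial RNA in the level of these receptors in each isolate was not tested.

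**Figure D2:**
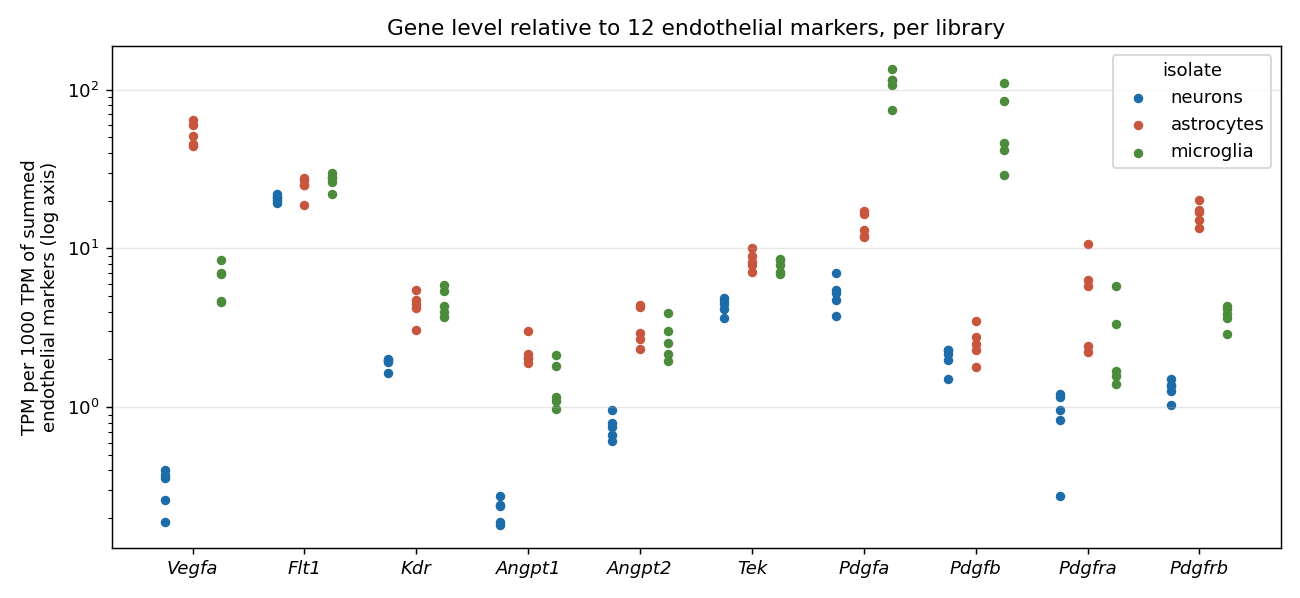
TPM of each gene per 1000 TPM of 12 summed endothelial markers, on a logarithmic axis; each point is 1 library and colours mark the isolate. Flt1 lies between 18.7 and 29.7 in all 15 libraries, whereas Vegfa is high in astrocytes (44.4 to 64.6) and Pdgfa and Pdgfb are high in microglia (74.5 to 136 and 29.0 to 110). The sum is weighted by its most abundant marker, Itm2a, most of all in neurons.

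The sequences before the annotated starts are shown for Vegfa, highest in astrocytes, and for the receptors Flt1, Kdr and Tek, highest in neurons. Each is the 250 bases that precede the start of transcription, 5′ to 3′ on the gene's strand, from RefSeq on GRCm38.p6, and capitals mark matches to any of 5 motifs searched on both strands. The motifs were ACGTG (the core of the hypoxia response element), CGGAAG and AGGAAG (ETS family, which includes endothelial regulators), GGGCGG (Sp1 family) and TATAAA. Of the members 6 had such a window in the table. The Vegfa window, at the first of 2 annotated starts, is chr17:46032378-46032627, that of Flt1 chr5:147726012-147726261, that of Kdr chr5:75978456-75978705 and that of Tek chr4:94739039-94739288.
Vegfa: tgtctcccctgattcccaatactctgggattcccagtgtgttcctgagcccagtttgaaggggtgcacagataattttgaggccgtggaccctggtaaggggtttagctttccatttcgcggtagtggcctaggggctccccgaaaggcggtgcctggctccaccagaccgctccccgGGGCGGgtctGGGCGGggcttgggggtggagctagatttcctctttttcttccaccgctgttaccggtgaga
Flt1: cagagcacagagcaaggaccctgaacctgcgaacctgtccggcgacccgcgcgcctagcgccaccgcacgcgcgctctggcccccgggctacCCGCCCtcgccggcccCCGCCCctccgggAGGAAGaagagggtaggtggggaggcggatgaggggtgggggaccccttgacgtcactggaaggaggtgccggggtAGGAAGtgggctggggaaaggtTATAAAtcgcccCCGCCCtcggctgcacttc
Kdr: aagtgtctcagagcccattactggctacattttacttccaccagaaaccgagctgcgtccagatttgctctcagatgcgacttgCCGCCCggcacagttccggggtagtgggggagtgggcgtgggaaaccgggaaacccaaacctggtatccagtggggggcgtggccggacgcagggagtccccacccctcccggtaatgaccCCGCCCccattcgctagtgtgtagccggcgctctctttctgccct
Tek: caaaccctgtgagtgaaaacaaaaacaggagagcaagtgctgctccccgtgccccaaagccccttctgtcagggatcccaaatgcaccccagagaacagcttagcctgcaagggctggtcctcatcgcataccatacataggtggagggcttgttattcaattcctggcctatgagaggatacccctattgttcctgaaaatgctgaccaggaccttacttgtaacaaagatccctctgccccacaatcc

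Flt1 had 2 matches to AGGAAG, beginning 129 and 53 bases before the start, 3 to GGGCGG and 1 to TATAAA, which began 31 bases before the start. Kdr had 2 matches to GGGCGG (166 and 45 bases before the start), Vegfa 2 to the same motif (72 and 62 bases), and Tek none to any of the 5. None of the 4 windows held ACGTG or CGGAAG, and bases farther upstream were not searched. The window at the second Vegfa start, chr17:46025164-46025413 and not printed, lies inside the gene itself (chr17:46016993-46032369). It held ACGTG beginning 211 bases and GGGCGG beginning 158 bases before that start. Among 32851 windows of the same length in the table, ACGTG was found in 16.6%, CGGAAG in 13.6%, AGGAAG in 29.5%, GGGCGG in 32.7% and TATAAA in 12.4%. GC content was 70.4% for Flt1, 61.6% for Kdr, 59.2% for Vegfa and 51.2% for Tek, with a median of 52.4% over all windows. No 2 of the marked matches overlap in these 4 windows. No motif of the 5 was present in the windows of all 3 receptors, which says only that these letters are not common to them here.

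The angiopoietins were lowest in microglia. Angpt1 had the lowest mean of the 10 members in every isolate, and Angpt2 lay above it. Angpt1 (chr15:42424723-42676977, minus strand), the agonist of TEK, was at 1.49, 1.86, 2.62, 2.23 and 2.53 TPM in neuron libraries 1 to 5, at 1.88, 1.68, 3.98, 2.63 and 2.48 TPM in astrocytes, and at 0.32, 0.23, 0.25, 0.25 and 0.17 TPM in microglia. Neurons and astrocytes overlapped, and every microglia library lay below both. The log2 difference of neurons from astrocytes was -0.14 (95% interval -0.49 to 0.20, limma adjusted p = 0.478), that of neurons from microglia 1.33 (adjusted p = 1.15e-06) and that of astrocytes from microglia 1.47 (adjusted p = 2.80e-07). After quantile normalization the last 2 were 0.69 and 0.85 and no longer reached 2-fold, with adjusted p = 0.000110 and 1.20e-05.

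Angpt2 (chr8:18690263-18741562, minus strand), made mainly by activated endothelium, was at 6.54, 5.20, 10.4, 8.81 and 5.64 TPM in neurons, 2.31, 2.19, 5.70, 3.58 and 5.35 TPM in astrocytes, and 0.45, 0.45, 0.65, 0.27 and 0.57 TPM in microglia. Neurons and astrocytes overlapped in range. The log2 difference of 0.82 between them had an adjusted p of 0.00547 in limma but did not reach 2-fold (95% interval 0.34 to 1.29), while microglia were lower than neurons (2.46, adjusted p = 2.83e-08) and than astrocytes (1.64, adjusted p = 4.00e-06, and 0.97 after quantile normalization). Angpt2 exceeded Angpt1 in all 15 libraries, but in microglia both lay below 1 TPM, with 0.27 against 0.25 TPM in library 4. Their order and ratio there are uncertain. The ratio of the antagonist to the agonist was 2.23 to 4.39 in neurons, 1.23 to 2.16 in astrocytes and 1.08 to 3.35 in microglia, with the neuron and astrocyte ranges apart. Their receptor exceeded the agonist as well, with Tek at 13.2 to 23.4 times Angpt1 in neurons and 2.62 to 4.97 times in astrocytes.

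**Figure D3:**
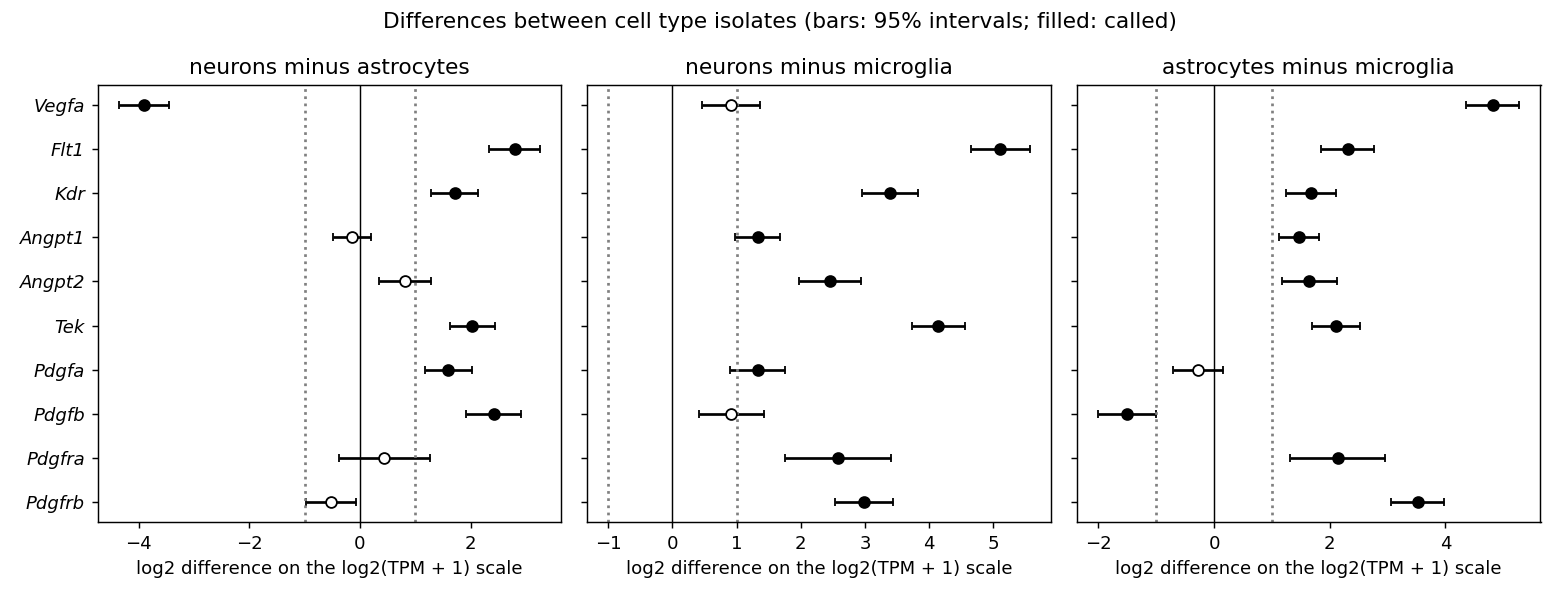
Log2 difference of each gene between isolates on the log2(TPM + 1) scale, with 95% intervals from limma; filled points passed the adjusted p and the 2-fold limit, which is dotted. Vegfa is the only member called lower in neurons than in astrocytes (-3.90), and Pdgfb the only one called higher in microglia than in astrocytes (-1.50).

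The PDGF ligands differed from the other members in their microglia levels. Pdgfa (chr5:138976014-138997370, minus strand), the ligand of PDGFRA on oligodendrocyte precursors, was at 30.6, 41.2, 75.2, 55.1 and 50.5 TPM in neuron libraries 1 to 5. It was at 17.1, 13.5, 17.2, 14.4 and 14.6 TPM in astrocytes and at 17.1, 28.3, 19.0, 14.8 and 16.7 TPM in microglia. The neuron libraries lay above all others, and astrocytes and microglia overlapped. Neurons exceeded astrocytes by a log2 of 1.60 (SE 0.21, limma adjusted p = 3.91e-06) and microglia by 1.33 (SE 0.21, adjusted p = 1.77e-05). The difference from microglia was 0.73 with median-of-ratios scaling, 1.0 (just under the limit before rounding) with quantile normalization and 0.96 without all libraries numbered 3 and 4, and it then missed 2-fold. Astrocytes and microglia differed by -0.27 (95% interval -0.71 to 0.16, limma adjusted p = 0.241), and by -0.93 and -0.76 under these scalings, still short of 2-fold. With a mean of 19.2 TPM Pdgfa was the most abundant member in microglia, above 72.2% of tested genes.

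Pdgfb (chr15:79995874-80014977, minus strand), the endothelial ligand for pericytes, was at 12.4, 17.8, 21.6, 26.9 and 19.9 TPM in neurons, 2.49, 2.87, 3.04, 3.38 and 2.18 TPM in astrocytes, and 6.16, 6.05, 11.8, 15.2 and 12.3 TPM in microglia. Astrocytes lay below every other library, and neurons and microglia overlapped. Astrocytes were lower than neurons (log2 difference of neurons minus astrocytes 2.42, SE 0.24, limma adjusted p = 1.66e-07) and lower than microglia (astrocytes minus microglia -1.50, SE 0.24, adjusted p = 2.24e-05). Pdgfb was the single member called lower in astrocytes than in both others, as were 2.16% of tested genes. Neurons exceeded microglia by 0.91 (95% interval 0.41 to 1.42, adjusted p = 0.00262), short of 2-fold. That difference was called without neuron library 1 or microglia library 4 (1.06 in each case), and was 0.35 with median-of-ratios scaling and 0.53 with quantile normalization.

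Microglia libraries 1 and 2 were the lowest for Pdgfb and also held the most transcripts of mature oligodendrocytes, 69449 and 51578 TPM over 10 markers against 250 to 8131 TPM in the other microglia libraries. Without them the difference between neurons and microglia was 0.52 and that between astrocytes and microglia -1.90. The part of oligodendrocyte RNA in the lower Pdgfb was not tested.

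Relative to endothelial markers both PDGF ligands stood apart from the receptors Flt1, Kdr and Tek in microglia. Between neurons and astrocytes the Pdgfb ranges overlapped, as those of Flt1 did, and the Pdgfa ranges did not. Pdgfb per 1000 TPM of endothelial markers was at 1.51 to 2.29 TPM in neurons, 1.79 to 3.51 TPM in astrocytes and 29.0 to 110 TPM in microglia. Pdgfa was at 3.74 to 6.95, 11.8 to 17.1 and 74.5 to 136 TPM. The lowest microglia library was thus above the highest astrocyte library for both ligands, with endothelial markers at only 138 to 255 TPM in microglia. The ratio of Pdgfa to Pdgfb was 2.05 to 3.48 in neurons, 4.26 to 6.86 in astrocytes and 0.970 to 4.67 in microglia. Pdgfa exceeded Pdgfb in all neuron and astrocyte libraries and in 4 of 5 microglia libraries.

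Pdgfra (chr5:75152292-75198215, plus strand), the receptor that marks oligodendrocyte precursors and fibroblasts, varied most between libraries of 1 isolate. It was at 9.49, 7.46, 2.98, 14.2 and 7.66 TPM in neuron libraries 1 to 5, at 2.22, 1.98, 7.71, 13 and 7.71 TPM in astrocytes, and at 0.21, 0.33, 0.43, 0.80 and 0.49 TPM in microglia. Neurons and astrocytes overlapped across most of their range and microglia lay below both. The coefficient of variation was 48.5% over the neuron libraries, 70.1% over the astrocyte libraries and 49.0% over the microglia libraries, the largest of the 10 members in each isolate. Neurons were higher than microglia by a log2 of 2.58 (SE 0.39, limma adjusted p = 1.31e-05) and astrocytes than microglia by 2.14 (SE 0.39, adjusted p = 9.23e-05). The difference of neurons from astrocytes was 0.44 (95% interval -0.38 to 1.26, adjusted p = 0.359). It turned to -0.34 (adjusted p = 0.510) without all libraries numbered 1 and 2, and rose to 1.07 (adjusted p = 0.0207) without those numbered 3 and 4, where it was called.

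The oligodendrocyte precursor markers varied alongside Pdgfra in neurons and astrocytes. The 10 markers summed to 243, 226, 72.1, 332 and 216 TPM in neuron libraries 1 to 5 and to 81.0, 73.2, 147, 193 and 152 TPM in astrocytes. Neuron library 3 was lowest and neuron library 4 highest for both Pdgfra and the markers, and in astrocytes library 2 was lowest and library 4 highest for both. In microglia the sums were 142, 168, 42.3, 13 and 38.6 TPM, and library 4, lowest for the markers, was highest for Pdgfra. Per 1000 TPM of these markers Pdgfra was at 33 to 42.8 TPM in neurons, 27.1 to 67.2 TPM in astrocytes and 1.48 to 61.6 TPM in microglia. Some of the markers, such as Olig1 and Sox10, are also expressed by mature oligodendrocytes. Markers of fibroblasts, which also express Pdgfra, summed to 104 to 226 TPM in neurons, 197 to 258 TPM in astrocytes and 19.4 to 38.6 TPM in microglia, and 4 of 8 were called higher in astrocytes than in neurons. The part of either cell type in the Pdgfra level was not tested.

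Pdgfrb (chr18:61045150-61085061, plus strand), the pericyte receptor for PDGF-B, was at 8.51, 10.7, 13.6, 16.2 and 13.8 TPM in neuron libraries 1 to 5 and at 16.9, 11.0, 26.6, 21.2 and 18.6 TPM in astrocytes. In microglia it was at 0.54, 0.87, 0.99, 0.40 and 0.63 TPM, below all others, while neurons and astrocytes overlapped. The log2 difference was -0.53 for neurons minus astrocytes (95% interval -0.98 to -0.07, limma adjusted p = 0.0463), under 2-fold and therefore not called. It was 2.99 for neurons minus microglia (SE 0.21, adjusted p = 1.05e-09) and 3.52 for astrocytes minus microglia (SE 0.21, adjusted p = 8.68e-11). Of the 10 mural markers 4 were called higher in neurons than in astrocytes, the contractile genes Acta2 (log2 difference 3.61), Tagln (3.45) and Myh11 (2.64) and the pericyte gene Higd1b (1.06). The other 6, Rgs5 (0.77), Kcnj8 (0.23), Notch3 (0.17), Vtn (0.01), Abcc9 (-0.13) and Anpep (-0.20), were not called. Rgs5 was under 2-fold, but its neuron libraries all lay above the astrocyte libraries (limma adjusted p = 0.0136). The median log2 difference of the 10 was 0.50. Per 1000 TPM of mural markers Pdgfrb was at 2.42 to 3.32 TPM in neurons and 5.56 to 10.2 TPM in astrocytes. In microglia it was at 3.21 to 4.48 TPM, so by this measure every astrocyte library exceeded the rest. Acta2 alone averaged 1303 of the 4268 TPM of summed markers in neurons, 99.6 of 2247 in astrocytes and 61.9 of 179 in microglia. The size of this ratio thus depends on the weight of the contractile genes, and the ratio was not taken without them.

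**Figure D4:**
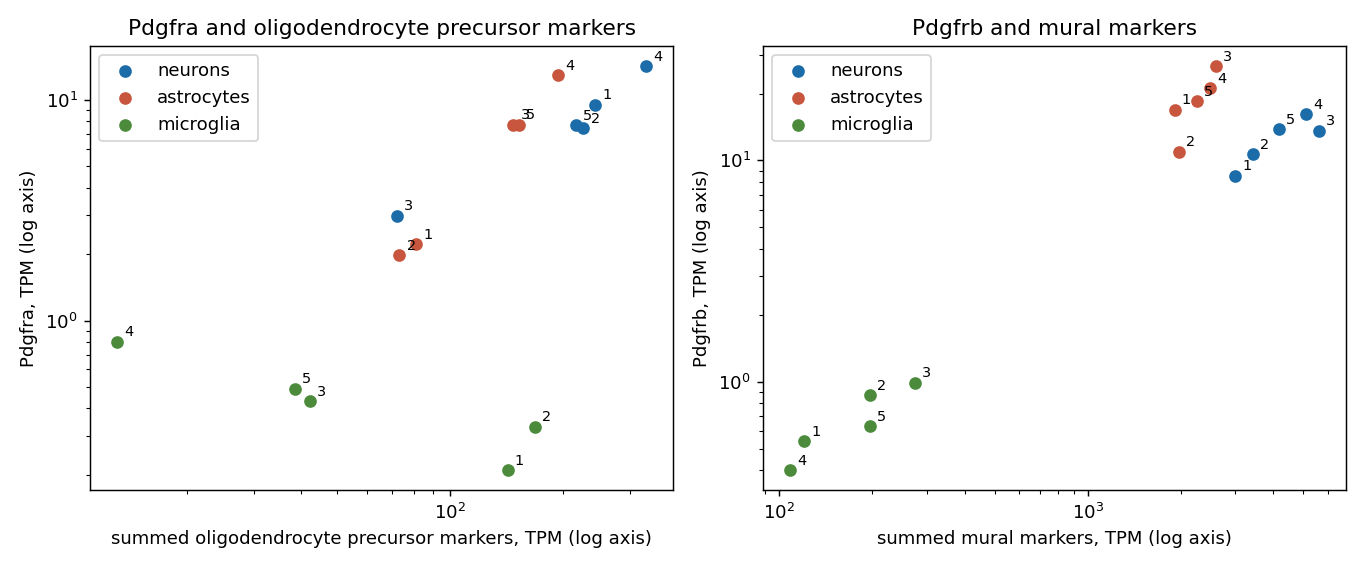
Pdgfra against the sum of 10 oligodendrocyte precursor markers (left) and Pdgfrb against the sum of 10 mural markers (right), both axes in TPM and logarithmic; each point is 1 library, numbered, and colours mark the isolate. Microglia libraries 1 and 2 hold 142 and 168 TPM of precursor markers with only 0.21 and 0.33 TPM of Pdgfra. Of these marker sums 99.2 and 118.5 TPM are Olig1, which mature oligodendrocytes also express. All 5 neuron libraries lie to the right of the astrocyte libraries on the mural axis. Pdgfrb is at 8.51 to 16.2 TPM in neurons against 11.0 to 26.6 TPM in astrocytes.

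The order of the members by level differed between the isolates. In neurons Flt1 (mean 197 TPM) came first, before Pdgfa (50.5), Tek (41.6), Pdgfb (19.7) and Kdr (18.2), and Angpt1 (2.15) came last. In astrocytes Vegfa (60.2 TPM) came first, before Flt1 (28.1), Pdgfrb (18.8) and Pdgfa (15.4). In microglia Pdgfa (19.2 TPM) and Pdgfb (10.3) led, Flt1 was at 4.82 TPM, and the other 7 members were at means of 0.244 to 1.38 TPM. All members but Vegfa, Pdgfa and Pdgfb, 7 of 10, were called lower in microglia than in both other isolates, as 18.3% of tested genes were. Libraries 1 and 2 were the lowest pair for 8 of 10 members among astrocytes, 5 among neurons and 3 among microglia, against 47.3%, 46.2% and 33.5% of all tested genes. Mature oligodendrocyte markers were highest in libraries 1 and 2 of neurons too, at 8390 and 10291 TPM against 127 to 1524 TPM in the others. Astrocyte libraries 1 to 5 held 1122, 3812, 637, 454 and 1297 TPM, so library 5 exceeded library 1 there. The part of oligodendrocyte RNA in this order was not tested. The labels give no batch for these numbers.

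Profiles most like each member were sought among all tested genes by the mean absolute difference of centred log2(TPM + 1) values over the 15 libraries. Among those nearest Kdr were Col4a2 and Rasip1 (0.107 and 0.132), and those nearest Flt1 were AU021092, Nostrin and Adgrl4 (0.155 to 0.172). Tek lay nearest Slc35f2, Proser2 and Arl4a (0.137 to 0.141). Vegfa lay nearest Fads2, Rgs20 and Elovl2 (0.183 to 0.194), all with their highest mean in astrocytes. Pdgfrb lay nearest Tob1, Lhfp and Emp2 (0.188 to 0.196), and Pdgfra nearest Lnx1, Tmem255a and Cacng4 (0.330 to 0.334), the largest distances of the 10. Pdgfb lay nearest Ifi35, Ceacam1 and BC028528 (0.235 to 0.257), Pdgfa nearest Adipor2, Ptma and Nod1 (0.193 to 0.208), Angpt1 nearest Dnaja4, Plagl1 and Abi2 (0.130 to 0.133), and Angpt2 nearest Stom, Tcf19 and Ephb4 (0.138 to 0.167). Among the members themselves, Kdr and Tek were closest (0.316) and Vegfa and Pdgfb farthest apart (2.81). This likeness is a description over libraries that fall into 3 cell types.

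Other genes of the same pathways were taken from a list of 38, of which 34 were tested. The genes Vegfd, Angpt4, Svep1 and Esm1 did not pass the expression filter. Between neurons and astrocytes 9 were called higher in neurons and 5 in astrocytes, with a median log2 difference of 0.40. Between neurons and microglia 16 were higher in neurons and 2 in microglia (median 0.80), and between astrocytes and microglia 14 were higher in astrocytes and 1 in microglia (median 0.80). The shares, 14, 18 and 15 of 34, are 41.2%, 52.9% and 44.1%, beside 25.6%, 39.3% and 42.5% of all tested genes, and the last is near its background.

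The remaining ligands followed several patterns. Vegfb, a ligand of FLT1, was at 74.6 ± 9.82 TPM in astrocytes, 39.9 ± 25.9 TPM in neurons and 21.2 ± 2.97 TPM in microglia (SD, n = 5), and was called higher in astrocytes than in neurons (-1.13, limma adjusted p = 0.00663) although the libraries overlapped. Pdgfc, an activating ligand of PDGFRA, was also highest in astrocytes (5.09 ± 1.43 TPM against 1.12 ± 0.404 in neurons, -1.51, adjusted p = 2.44e-06). Vegfc, the lymphatic and endothelial ligand of FLT4, was highest in neurons (17.6 ± 8.15 TPM against 4.78 ± 1.41 in astrocytes and 2.11 ± 0.594 in microglia). Pgf, which binds FLT1, was at 23.5 ± 11.4 TPM in neurons, 13.7 ± 1.97 TPM in astrocytes and 2.01 ± 0.894 TPM in microglia, and Pdgfd, a ligand of PDGFRB, at 22 ± 2.91, 10.6 ± 1.60 and 0.884 ± 0.178. Both were called lower in microglia than in either other isolate, and neither reached 2-fold between neurons and astrocytes on the log2(TPM + 1) scale.

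Among the other receptors Tie1, the partner of TEK, was at 23.3 ± 7.68 TPM in neurons, 4.38 ± 1.19 TPM in astrocytes and 0.820 ± 0.226 TPM in microglia, and Flt4, the receptor of VEGF-C, at 2.77 ± 0.584, 0.646 ± 0.164 and 0.0820 ± 0.0277. Both were called higher in neurons than in the other isolates. The co-receptor Nrp1 was at 22 ± 7.48 TPM in neurons, 11.7 ± 4.56 TPM in astrocytes and 18.4 ± 5.25 TPM in microglia, and was called in no comparison, like Nrp2. Nrp1 thus kept a level in microglia where Kdr was at 0.808 ± 0.134 TPM. Of the regulators, Ptprb, the phosphatase that restrains TEK, was at 29.5 ± 7.41 TPM in neurons and 3.65 ± 1.27 TPM in astrocytes, and Robo4 and the Notch ligand Dll4 were also called higher in neurons than in both others. Apln, the ligand of an endothelial receptor, went the other way, at 44.9 ± 14.3 TPM in astrocytes, 3.39 ± 1.55 TPM in neurons and 1.45 ± 0.786 TPM in microglia (neurons minus astrocytes -3.40, limma adjusted p = 1.50e-08). Its receptor Aplnr was at 4.21 ± 1.86 TPM in neurons and 1.75 ± 1.02 TPM in astrocytes. On the log2(TPM + 1) scale the difference was 0.92, short of the 2-fold limit, while the ratio of the means was 2.40.

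**Figure D5:**
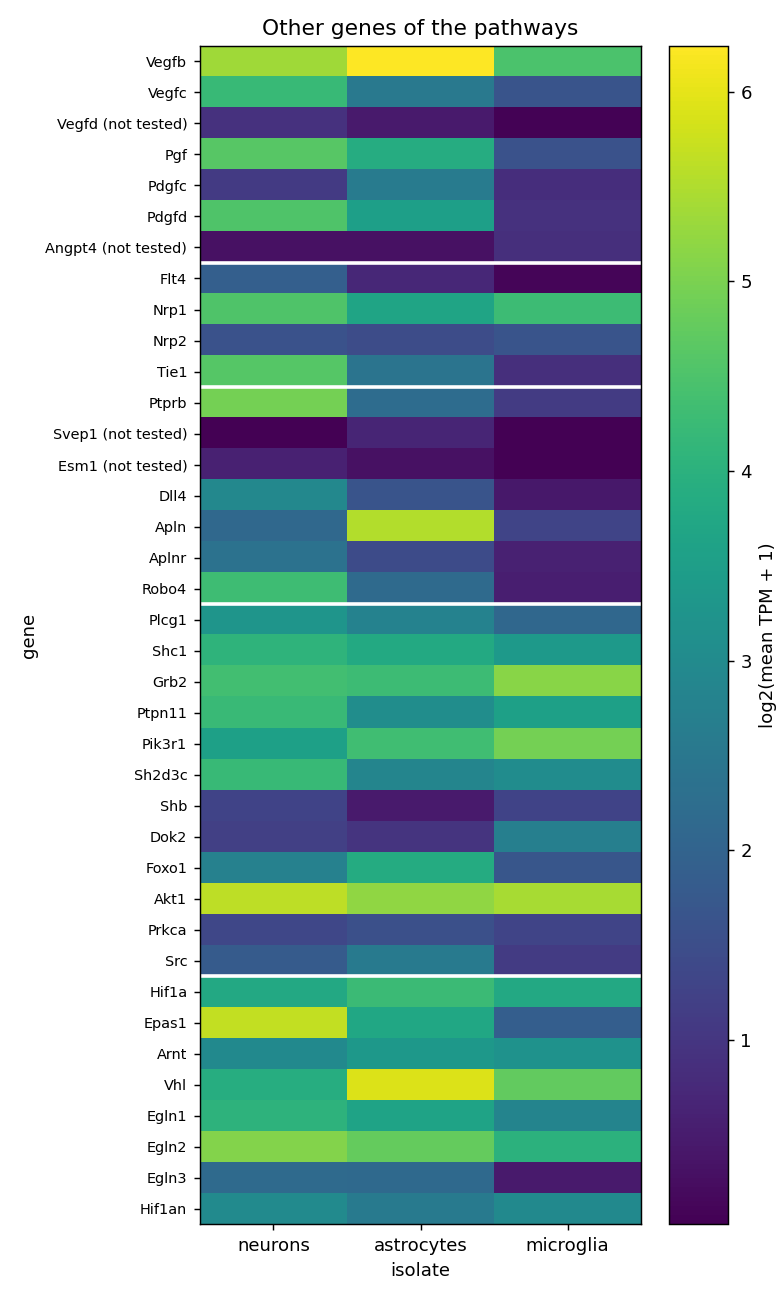
Mean level of the 38 other pathway genes in each isolate as log2(mean TPM + 1), lighter for higher; white lines part ligands, receptors, receptor regulators, signal transducers and oxygen-sensing genes. Vegfb, Apln and Vhl are brightest in astrocytes, and Tie1, Ptprb, Robo4 and Epas1 in neurons.

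Signal transducers are shared by many receptors. Of 12 tested, 3 were called between neurons and astrocytes, 5 between neurons and microglia and 3 between astrocytes and microglia. These shares, 25%, 41.7% and 25%, were near or below the 25.6%, 39.3% and 42.5% of all tested genes. Foxo1, a transcription factor held in check by TEK signalling, was higher in astrocytes (13.4 ± 3.20 TPM) than in neurons (5.72 ± 0.937) and microglia (2.23 ± 0.339). Dok2, an adaptor of blood cells, was highest in microglia (5.50 ± 2.52 TPM against 1.31 ± 0.671 in neurons), and Sh2d3c was highest in neurons (17.6 ± 5.36 TPM against 6.22 ± 0.788 in astrocytes). The phosphatase Ptpn11 was called higher in neurons than in astrocytes (log2 difference 1.18), the kinase Src higher in astrocytes than in microglia (1.45), and Pik3r1, a subunit of PI3 kinase, lower in neurons than in microglia (-1.38).

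Of 8 genes of the oxygen-sensing pathway, which controls Vegfa transcription, 1 was called higher and 1 lower in neurons than in astrocytes (25%, beside 25.6% of all tested genes). Against microglia 4 were called higher in neurons (50%, beside 39.3%) and 3 in astrocytes (37.5%, beside 42.5%), and none lower. Hif1a was at 12.8 ± 2.91 TPM in neurons, 18.1 ± 5.86 TPM in astrocytes and 12.8 ± 3.18 TPM in microglia and was called in no comparison, nor was its partner Arnt. Epas1, the HIF subunit abundant in endothelium, was at 50.2 ± 9.89 TPM in neurons, 12.2 ± 2.07 TPM in astrocytes and 2.7 ± 0.762 TPM in microglia and was called in all 3. Vhl, which marks HIF subunits for degradation, was highest in astrocytes (59.0 ± 11.1 TPM against 14.0 ± 1.25 in neurons, -1.98, limma adjusted p = 1.97e-08). The prolyl hydroxylases Egln1 and Egln3 were called higher in neurons than in microglia (log2 differences 1.22 and 1.68), Egln3 also higher in astrocytes than in microglia (1.66).

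Of 10 other targets of hypoxia, 3 were called higher in neurons than in astrocytes and 1 lower (40.0%, beside 25.6% of all tested genes), with a median log2 difference of 0.02. Between neurons and microglia 5 were higher in neurons and 2 in microglia (70.0%, beside 39.3%, median 1.30), and between astrocytes and microglia 6 were higher in astrocytes (60.0%, beside 42.5%, median 1.17). Those higher in neurons than in astrocytes were the glucose transporter Slc2a1, which is also abundant in brain endothelium (1628 ± 598 TPM against 251 ± 44.5), Ndrg1 and Ankrd37, and the lower one was the prolyl hydroxylase subunit P4ha1 (14.4 ± 1.78 against 45.6 ± 11.5). Adm, the vasoactive peptide adrenomedullin, was higher in neurons and in astrocytes than in microglia (log2 differences 4.17 and 3.35), and the glycolytic enzyme Pgk1 was higher in astrocytes than in microglia (1.66).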

How the data were processed

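One table of TPM values per gene and library was deposited by the authors. The submitters' processing notes name mm10, STAR 2.7.1a, Trim Galore 0.6.4, DESeq2 1.36.0 and RSEM 1.2.28, without their roles. Per the labels' protocols the cDNA was amplified by PCR, which can affect levels of scarce transcripts. Columns summed to 1000000 or 1000001, no pair of libraries held identical values, and depth per library is unknown. Columns were matched to samples by title.

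Values were transformed to log2(TPM + 1). The 13351 genes that passed the filter were fitted with a mean per cell type in limma 3.58.1 (R 4.3.3, variance trend), and p-values were adjusted over all of them. The fit was tested on simulated data. Gene positions come from GENCODE vM21 (mm10), and figures were drawn in matplotlib 3.10.9. The members and lists were chosen with earlier results of these data known. Genes named are the members, the other ligands, receptors and regulators, the 3 largest called differences per comparison of the remaining lists, and the 3 profiles nearest each member. One of these profiles is not reported here. Hif1a, Arnt and P4ha1 fall outside this rule and were named after their values were seen.

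Cell types share replicate numbers. Deviations from group means of same-numbered neuron and microglia libraries correlated at 0.216 to 0.382, all above 0.1, so these libraries may be paired, from the data and not from the labels. Neuron library 2 correlated more with a microglia library of another number than with its own (0.253). Such values cannot tell shared animals from other likeness between same-numbered libraries. The main fit used no pairing. Correlations for the other pairs of cell types ran from -0.0329 to 0.249 and did not all exceed 0.1. Alternatives were other pseudocounts, filters, scalings and fits, a replicate block, and libraries left out.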

Additional observations from a re-analysis of the deposited data

Results flagged for a closer look

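For 8 of 54 genes examined (the members and the tested genes of the pathway and hypoxia lists), 1 library stood apart from the other 4 of its isolate by Dixon's test at the 95% level on log2(TPM + 1). Chance alone flags about 1 in 20 groups, and 162 groups were examined. None of the 10 members was among them. In microglia, Vegfc was at 1.07 TPM in library 1 against 2.20 to 2.54 TPM in the others, Ptprb at 2.10 TPM in library 3 against 0.84 to 1.04 TPM, and Aplnr at 1.86 TPM in library 2 against 0.04 to 0.28 TPM. In astrocytes, Tie1 was at 2.36 TPM in library 2 against 4.38 to 5.47 TPM, Grb2 at 9.99 TPM in library 2 against 19.3 to 22.2 TPM, and Ptpn11 at 8.56 TPM in library 1 against 7.01 to 7.20 TPM. In neurons, Akt1 was at 54.2 TPM in library 4 against 45.9 to 47.2 TPM, and Hif1an at 3.73 TPM in library 2 against 7.66 to 8.13 TPM.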

How the results depend on the processing

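Each count of called genes stayed within 1.5 times its value under all 27 alternatives. With single libraries left out, members called numbered 6 (neurons and astrocytes), 8 to 9 (neurons and microglia) and 9 (astrocytes and microglia). Quantile normalization lowered the 2 microglia counts most, to 6 and 7. Pdgfa and Angpt1 were then not called between neurons and microglia, nor Angpt1 and Angpt2 between astrocytes and microglia. The counts were 6, 7 and 9 with median-of-ratios scaling and 7, 7 and 9 without all libraries numbered 3 and 4. With the replicate block the counts were 6, 8 and 9, and it changed no call of a member. The difference of Pdgfra between neurons and astrocytes reversed to -0.34 without all libraries numbered 1 and 2, and the cause was not tested. Median-of-ratios scaling and quantile normalization moved the median log2 difference of all tested genes from 0.48 to -0.03 and 0.03 (neurons minus microglia) and from 0.57 to 0.01 and 0.05 (astrocytes minus microglia), and no member changed direction under either. Members near 1 TPM in microglia depend on the pseudocount, and depth, which would limit them further, is unknown.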
